A study of Mus musculus with 4 samples.

Results

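The genes described here form the chemokine axis that brings monocytes into inflamed tissue. They are the 4 neighbouring ligand genes *Ccl2*, *Ccl7*, *Ccl8*, and *Ccl12*, the receptor gene *Ccr2*, and *Ackr1*, the atypical chemokine receptor of venules. They were chosen by name, and all 6 were found among the 27998 genes of the single-cell count matrices. They were read in endothelial cells (ECs), mural cells, T cells, and 3 kinds of myeloid cells from the spinal cord (SC) of mice with experimental autoimmune encephalomyelitis (EAE), a model of CNS autoimmune inflammation.

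CCR2 is a G protein–coupled receptor carried by Ly6C-high monocytes, and it is required for their exit from the bone marrow and their entry into the inflamed CNS. CCL2 and CCL7 are its main ligands in mice, CCL12 is a mouse CCR2 ligand without a human counterpart of the same gene, and CCL8 in mice is better known as a ligand of CCR8. ACKR1 binds many inflammatory chemokines without G protein signalling, and in ECs it carries them across the vessel wall and presents them on the venular surface.

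Each of the 4 conditions was represented by 1 library, so no difference between conditions could be tested against animals. Wild-type mice (C57Bl/6JOlaHsd, 15 weeks) received the isotype antibody mIgG1 or the Ang2-blocking antibody (Ang2 Ab) for the 14 days from EAE induction. EC-specific Ang2-overexpressing mice (*EC-Ang2*; *VE-cadherin-tTA* drives *Tet-OS-Ang2* in ECs, doxycycline being withdrawn at birth) and single transgenic controls (Ctrl), both C57Bl/6JCrl and 12 to 14 weeks old, were taken at 12 days. All 4 groups carried EAE induced with MOG peptide in complete Freund's adjuvant plus pertussis toxin, at 400 ng in the antibody pair and 200 ng in the transgenic pair, and no library came from uninflamed SC. The number of animals behind a library is not given in the sources used here. Equal numbers of CD45+ leukocytes and CD31+ ECs were sorted, so the balance of immune cells and ECs carries no information on the tissue.

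A unique molecular identifier (UMI) counts 1 captured mRNA molecule, and the libraries held 52084739 to 66631583 UMIs. Barcodes with at least 2000 UMIs and under 10% mitochondrial UMIs were kept, 5415 to 7488 per library. Classes were set by genes outside the 6: ECs by *Cldn5*, mural cells by *Pdgfrb*, T cells by *Cd3e*, and myeloid cells by *Tyrobp*, *Fcer1g*, and *Ctss*. Myeloid cells were divided into *Ly6c2*+ monocytes, microglial cells with *Tmem119* or *P2ry12*, and *Ly6c2*-low myeloid cells with neither. The classes held 2377 to 3526 ECs, 621 to 1422 monocytes, 67 to 820 microglial cells, 509 to 842 *Ly6c2*-low myeloid cells, 141 to 302 T cells, and only 10 to 18 mural cells per library. Endothelial, mural, and T cell check lists were highest in their own classes, and the lists also showed mixing. The microglial class carried monocyte and macrophage genes at 11972 CPM (UMIs per 1000000 UMIs of the class) in mIgG1 and 3040 to 5874 CPM elsewhere, beside 5080 to 10676 CPM of microglial genes. *Ly6c2*-low myeloid cells carried the 3 granulocyte genes at 1194 and 2200 CPM in mIgG1 and Ang2 Ab but at 18719 and 20431 CPM in Ctrl and *EC-Ang2*. Any 2 libraries shared 51 to 77 barcodes, against 48.7 to 71.0 if barcodes were independent.

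Levels are given as CPM, the UMIs of a gene per 1000000 UMIs of a class in 1 library, always in the order mIgG1, Ang2 Ab, Ctrl, and *EC-Ang2*. Intervals are 95% and cover counting error only. Barcodes with 1 to 100 UMIs served as a measure of free RNA, since droplets without a cell still hold RNA from lysed cells. In immune classes, EC genes stood at 2.42% to 4.83% of their level in these droplets. In ECs, the listed immune genes as a set stood at 13.28% to 31.45% of theirs across the libraries. The immune gene with the lowest share in ECs stood at 3.55% to 5.44%, and that with the highest at 29.29% to 61.15%. For ECs, the rule that follows rests on the lowest gene and not on the set. A member at only a few percent of its droplet level in a class is therefore not read as expressed there.

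The *Ccl2*-to-*Ccl8* genes lie on 1 strand of chromosome 11 (mm10, chr11:82035571-82116799, an 81.2-kb stretch). *Ccl7* begins 8.26 kb after *Ccl2*, *Ccl11* lies between *Ccl7* and *Ccl12*, and *Ccl8* begins 11.8 kb after *Ccl12*. *Ccr2* lies on chromosome 9 (chr9:124101950-124113557, forward strand) and *Ackr1* on chromosome 1 (chr1:173331886-173333750, reverse strand). The promoters of the neighbours *Ccl12* and *Ccl8* are shown because these genes sit side by side, while the first was abundant in microglial cells and the second was scarce in every class. The windows run from 250 bases before to 50 bases after the gene start (RefSeq, GRCm38.p6, forward strand, chr11:82101595-82101894 for *Ccl12* and chr11:82114935-82115234 for *Ccl8*), and capitals mark the TATAAA motif.

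Ccl12: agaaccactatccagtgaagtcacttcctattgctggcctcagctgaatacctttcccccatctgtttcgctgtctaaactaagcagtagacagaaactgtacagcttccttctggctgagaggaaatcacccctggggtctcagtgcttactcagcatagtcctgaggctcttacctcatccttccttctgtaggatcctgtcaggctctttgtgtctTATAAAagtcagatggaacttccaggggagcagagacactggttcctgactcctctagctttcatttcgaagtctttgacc

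Ccl8: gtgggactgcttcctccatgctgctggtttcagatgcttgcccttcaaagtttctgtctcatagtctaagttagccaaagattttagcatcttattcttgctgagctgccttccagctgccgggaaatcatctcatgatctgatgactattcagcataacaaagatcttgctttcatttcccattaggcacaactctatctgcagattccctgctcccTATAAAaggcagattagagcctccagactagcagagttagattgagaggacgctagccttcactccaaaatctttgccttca

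TATAAA began 31 bases before the start of *Ccl12* and 32 bases before that of *Ccl8*, on the gene's strand. It was absent from the *Ccr2* and *Ackr1* windows and present, on either strand, in 13.6% of 32851 promoters of the same length. The *Ccr2* and *Ackr1* windows (chr9:124101933-124102232 and chr1:173333454-173333753) follow the RefSeq starts. They lie mostly within the gene positions given above, so they show little of the sequence before those positions. The AP-1-like TGANTCA was in 7.81% of all promoters and the STAT-type TTCNNNGAA in 8.30%. Neither, searched on both strands, was in the windows of *Ccl8*, *Ccl12*, *Ccr2*, or *Ackr1*.

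Among ECs, T cells, and the 3 myeloid classes, the ligands were highest in myeloid cells in all 4 libraries. Mural cells are given separately below. *Ccl2* stood at 81.2, 356, 513, and 415 CPM in monocytes and at 338, 717, 887, and 718 CPM in microglial cells. It reached 72.2, 209, 284, and 236 CPM in *Ly6c2*-low myeloid cells. Every myeloid value was lowest in mIgG1 and highest in Ctrl. *Ccl2* in ECs was 5.39, 8.93, 8.95, and 16.8 CPM, so that each EC value lay below every myeloid value. In T cells it was 3.36 to 16.3 CPM.

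**Figure D1:**
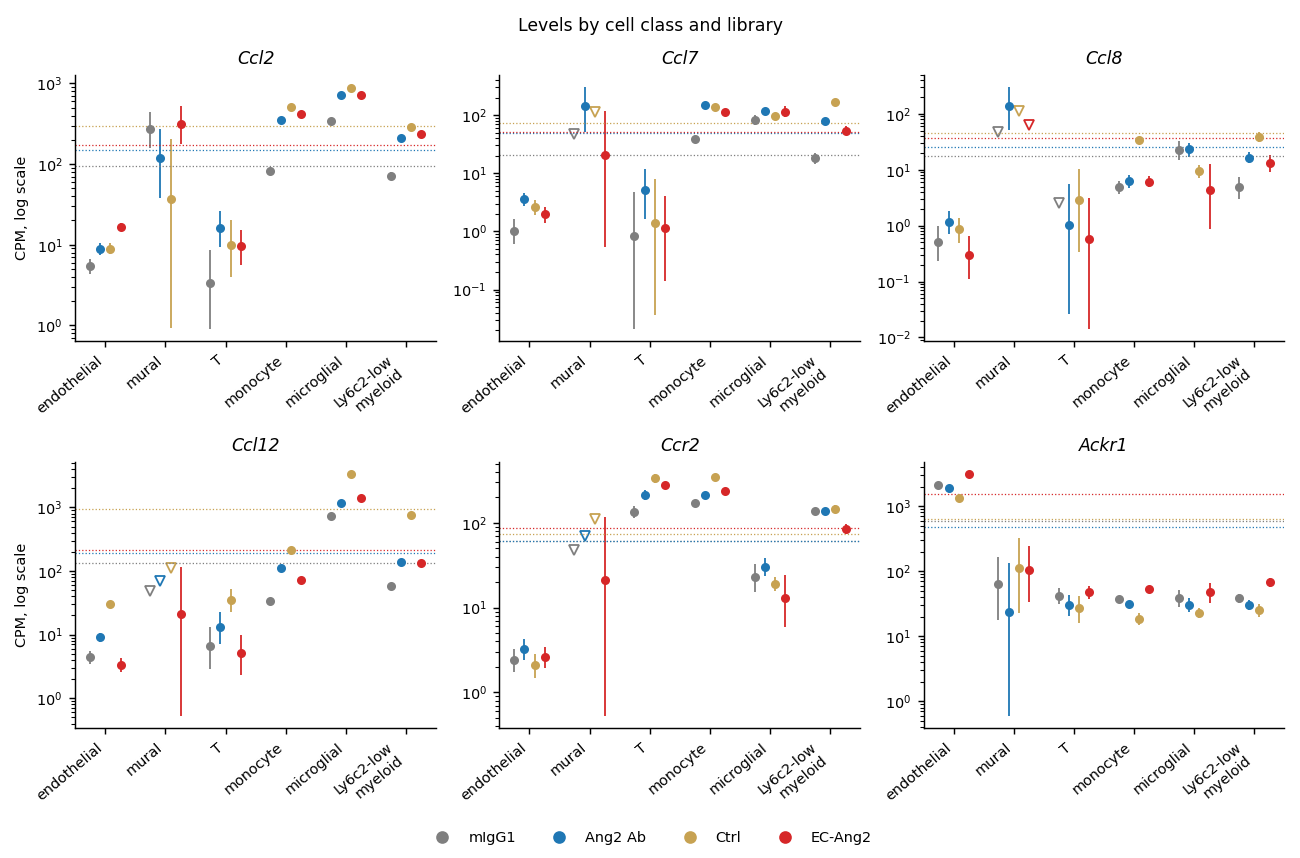
CPM (log scale) of the 6 genes in each cell class, with 1 point per library and its 95% counting interval; open triangles mark 0 UMIs and stand at the level of 3 UMIs, and dotted lines give the level in droplets of 1 to 100 UMIs. *Ackr1* is above the dotted lines only in ECs, and in ECs the 4 ligands and *Ccr2* lie far below them.

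*Ccl2* was carried by a minority of cells. UMIs were found in 16.7%, 36.1%, 44.1%, and 44.1% of monocytes. After thinning every cell to 2000 UMIs, which removes the effect of depth, the shares were 7.83%, 23.8%, 28.0%, and 27.5%, against 1.15% to 3.64% of T cells (1.53% to 7.28% unthinned). The tenth of monocytes with the most *Ccl2* held 89.6%, 76.1%, 72.1%, and 68.8% of its UMIs, and single monocytes reached 134 UMIs. In microglial cells the thinned shares were 24.2%, 43.3%, 48.7%, and 58.2%.

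*Ccl7*, whose product is also a CCR2 ligand, had UMIs in fewer cells. Monocytes gave 38.2, 152, 136, and 113 CPM, microglial cells 81.2, 116, 96.7, and 115 CPM, and *Ly6c2*-low myeloid cells 18.2, 79.3, 167, and 54.0 CPM. The mIgG1 library was the lowest in each of the 3 myeloid classes. ECs were at 1.02 to 3.56 CPM and T cells at 0.839 to 5.10 CPM. At 2000 UMIs per cell, 20.9%, 29.5%, 21.4%, and 20.6% of monocytes with a *Ccl2* UMI also had a *Ccl7* UMI, against 1.17%, 3.07%, 1.81%, and 1.93% of those without *Ccl2*. The 2 ligands were thus found together in monocytes of all 4 libraries.

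*Ccl8* was sparse, with 792 UMIs over all 6 classes and libraries. Monocytes gave 4.86, 6.20, 33.9, and 6.13 CPM. The Ctrl value rested on 1 cell with 103 of 165 UMIs, and it was 12.7 CPM without that cell. The *Ly6c2*-low class gave 4.89, 16.5, 38.8, and 13.0 CPM, and microglial cells 22.3, 23.1, 9.52, and 4.32 CPM. Among microglial cells of Ang2 Ab, 39 of 50 UMIs were in 1 cell. The droplets held *Ccl8* at 17.7, 25.3, 46.4, and 36.5 CPM. Every myeloid value lay below the droplet level of its library except that of microglial cells in mIgG1.

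*Ccl12*, like *Ccl2*, was highest in microglial cells, but its excess over the other myeloid classes was larger. It stood at 731, 1167, 3328, and 1420 CPM in microglial cells, against 33.3, 110, 210, and 72.1 CPM in monocytes and 57.7, 139, 755, and 133 CPM in *Ly6c2*-low myeloid cells. The microglial level was above both other myeloid levels in each library. UMIs were found in 61.3%, 79.6%, 88.0%, and 70.2% of microglial cells, or 42.7%, 61.7%, 75.7%, and 56.7% after thinning, against 1.53%, 2.91%, 11.3%, and 0.662% of T cells. In ECs *Ccl12* was at 4.43, 9.17, 30.8, and 3.35 CPM. The droplets held 135, 193, 947, and 210 CPM, so the EC values were 3.29%, 4.76%, 3.25%, and 1.59% of the droplet level.

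The balance of 2 ligands separated the myeloid classes. Microglial cells held 2.17, 1.63, 3.75, and 1.98 *Ccl12* UMIs for each *Ccl2* UMI, with the widest interval being 1.93 to 2.44 in mIgG1. Monocytes held 0.410, 0.307, 0.410, and 0.174. No monocyte ratio came near a microglial one. *Ly6c2*-low myeloid cells lay between them at 0.80, 0.666, 2.66, and 0.565, with Ctrl apart from the other libraries. Within microglial cells thinned to 2000 UMIs, *Ccl12* was present in 65.5%, 78.1%, 83.7%, and 83.8% of cells with *Ccl2* and in 35.8%, 52.4%, 67.3%, and 36.7% of cells without it.

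*Ccr2*, the receptor gene, stood at 170, 215, 346, and 238 CPM in monocytes and at 135, 216, 335, and 280 CPM in T cells. The *Ly6c2*-low class gave 140, 139, 148, and 85.1 CPM, and microglial cells 23.1, 30.5, 19.0, and 12.9 CPM. ECs were at 2.09 to 3.25 CPM, or 2.81% to 5.35% of the droplet level. Monocytes and T cells were the 2 highest classes in Ang2 Ab, Ctrl, and *EC-Ang2*, while in mIgG1 the *Ly6c2*-low value lay just above that of T cells. UMIs of *Ccr2* were found in 47.5%, 50.6%, 63.6%, and 54.8% of monocytes, and in 27.3%, 31.6%, 38.0%, and 31.2% after thinning, against 0.397% to 0.799% of ECs.

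*Ccl2* and *Ccr2* were found together in some monocytes. At 2000 UMIs per cell, *Ccl2* was found in 6.47%, 28.5%, 28.8%, and 26.5% of monocytes with a *Ccr2* UMI and in 8.41%, 22.4%, 28.6%, and 27.2% of those without one. In Ctrl and *EC-Ang2* the 2 shares differed by less than 1 percentage point, and the intervals overlapped in mIgG1 (4.19% to 9.47% against 6.79% to 10.3%) and in Ang2 Ab (24.4% to 32.9% against 19.8% to 25.1%). *Ccl7* was found in 1.89%, 8.17%, 6.23%, and 3.73% of monocytes with a *Ccr2* UMI and in 3.03%, 10.1%, 8.24%, and 8.51% of those without one. The first share was the lower one in each library, and the intervals were apart in *EC-Ang2* (2.19% to 5.90% against 6.82% to 10.4%).

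*Ackr1* was an EC transcript. ECs gave 2115, 1877, 1318, and 3117 CPM, while the immune classes stayed between 18.7 and 67.4 CPM, which was 3.00% to 7.17% of the droplet level. UMIs were found in 46.9%, 34.3%, 24.4%, and 56.8% of ECs, or 37.7%, 27.9%, 18.3%, and 43.0% after thinning. T cells, which serve as background, had 11.4%, 5.83%, 6.38%, and 10.3% after thinning. Median depth was 3632 to 6144 UMIs in ECs and 3688 to 4514 UMIs in T cells, whose unthinned shares were 17.6%, 13.6%, 11.3%, and 19.9%.

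*Ackr1* shares 493 bp (361 bp of them exonic) with *Cadm3*, a cell adhesion gene on the same strand (chr1:173333258-173333750), which was looked at because of this overlap. *Cadm3* was counted at 98.5, 44.2, 35.0, and 79.1 CPM in ECs and at no more than 2.84 CPM in any immune class. Reads from the shared part cannot be assigned to 1 of the 2 genes with certainty.

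Mural cells gave no firm levels. *Ccl2* stood at 272, 118, 37.0, and 314 CPM there, from 17, 5, 1, and 15 UMIs, of which 16, 4, 1, and 14 lay in a single cell per library. The *Ccl7* and *Ccl8* values of Ang2 Ab came from 6 UMIs each, 5 of them in 1 cell, and fibroblast genes reached 4082 CPM in the mural cells of that library. Clusters led by mural genes, which were not gated and held 80 to 143 barcodes per library, gave a wider view. *Ccl2* was at 221, 137, 14.0, and 134 CPM in them, or 138, 104, 6.36, and 96.4 CPM without the barcode with the most UMIs, and 15, 24, 5, and 16 barcodes had a UMI. Ctrl was the low library. These clusters also held *Cldn5* at 2793 to 4151 CPM, so they contained EC transcripts, and their part in the *Ccl2* values was not tested.

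Classes were then compared in edgeR on summed UMIs, with the library as a second term and the 4 libraries as the repeats. The library term takes up differences between conditions that the classes share. Only differences between conditions that vary by class count as spread. Adjusted p-values are over all genes tested and a gene is called at an adjusted p under 0.05. Between ECs and monocytes, 6 of the 6 members were called, in a contrast where 75% of 11634 genes were called. *Ackr1* was 41.9-fold higher in ECs (log2 5.39 ± 0.14 SE, adjusted p = 1.35e-19). The other 5 were lower in ECs, led by *Ccr2* (133-fold, log2 −7.05 ± 0.28) and *Ccl7* (68.3-fold, −6.09 ± 0.35), followed by *Ccl2* (44.8-fold), *Ccl8* (21.7-fold), and *Ccl12* (15.0-fold). Relative to the droplets, the EC values lay below the share of the immune genes as a set in each library. These folds are therefore limited by free RNA. The 6 calls were kept in each alternative of this contrast. For the 5 lower genes, the free RNA subtraction takes away more UMIs than ECs held, so that alternative could not test their calls.

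Between mural cells and ECs, 2 of the 6 members were called, against 24.8% of all genes. *Ackr1* was 48.0-fold lower in mural cells (log2 −5.58 ± 0.22). *Ccl2* was 14.0-fold higher (3.803 ± 0.572, adjusted p = 1.08e-05), but this call ended when the single barcode with the most UMIs of a member was left out of each sum (0.24, adjusted p = 0.902). *Ccl7* (3.51 ± 1.36) and *Ccl8* (4.96 ± 1.95) had adjusted p-values of 0.0629 and 0.0666 and passed the threshold in some alternatives, and the sign for *Ccl8* turned without Ang2 Ab (−4.46).

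Microglial cells differed from monocytes in 3 of the 6 members, against 42.1% of all genes. *Ccl12* was 13.4-fold higher in microglial cells (log2 3.75 ± 0.27, adjusted p = 1.07e-10) and *Ccr2* was 13.9-fold lower (−3.79 ± 0.27, adjusted p = 9.04e-11). Both calls were kept in each alternative of this contrast. *Ccl2* was 1.74-fold higher (0.80 ± 0.27, adjusted p = 0.0197), and this call was lost with free RNA subtracted (adjusted p = 0.112) and without mIgG1 (0.52, adjusted p = 0.0807), Ang2 Ab (adjusted p = 0.0828), or *EC-Ang2* (adjusted p = 0.0526). It was also lost with classes taken from Leiden clusters (0.58, adjusted p = 0.562). *Ccl7* passed without the barcode with the most UMIs (−0.77, adjusted p = 0.015). In the main test the values for *Ccl7* (−0.28), *Ccl8* (0.08), and *Ackr1* (−0.29) did not pass.

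Of the 6 members, 2 were called between *Ly6c2*-low myeloid cells and monocytes, where 3.76% of all genes were called. *Ccr2* was lower (log2 −0.97 ± 0.22, adjusted p = 0.00702) and *Ccl12* 1.88-fold higher (0.91 ± 0.25, adjusted p = 0.0349) in the *Ly6c2*-low cells. The *Ccr2* call was lost without Ang2 Ab (adjusted p = 0.0528) or *EC-Ang2* (adjusted p = 0.145) and with Leiden clusters (adjusted p = 0.217). The *Ccl12* call was lost when any of the 4 libraries was left out, with values of 0.61 to 1.14, and at 5000 UMIs per barcode (0.18), and its sign turned with Leiden clusters (−1.002, adjusted p = 0.434). The granulocyte genes moved with this class, as given above, and their part in the values was not tested.

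T cells and monocytes differed in 4 of the 6 members, against 53.1% of all genes, all 4 of them ligands that were lower in T cells. *Ccl7* was 63.8-fold lower (log2 −5.99 ± 0.55), *Ccl2* 40.8-fold (−5.35 ± 0.40), *Ccl8* 13.5-fold (−3.75 ± 1.05), and *Ccl12* 9.81-fold (−3.29 ± 0.34). The difference in *Ccr2* was −0.31 ± 0.22 (adjusted p = 0.237), which does not show that the 2 classes carry it equally. With Leiden clusters the calls of *Ccl8* (−1.08, adjusted p = 0.285) and *Ccl12* (−1.38, adjusted p = 0.125) were lost.

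Within ECs, venous, capillary, and arterial cells were set by zone genes (*Slc38a5*, *Selp*, *Sele*, and *Nr2f2*; *Mfsd2a* and *Ddc*; *Bmx*, *Sema3g*, *Stmn2*, and *Vegfc*). There were 868 to 1302 venous, 179 to 609 capillary, and 308 to 394 arterial ECs per library. Another 343 to 971 ECs per library passed for more than 1 zone and 617 to 911 for none, and these were left out. *Ackr1* was concentrated in the venous cells, at 3557, 3564, 3329, and 5126 CPM, against 196, 111, 142, and 200 CPM in capillary and 52.3, 65.1, 46.2, and 193 CPM in arterial cells. The venous range did not overlap the other 2. In the arterial cells of *EC-Ang2*, 139 of 384 UMIs were in 1 barcode.

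**Figure D2:**
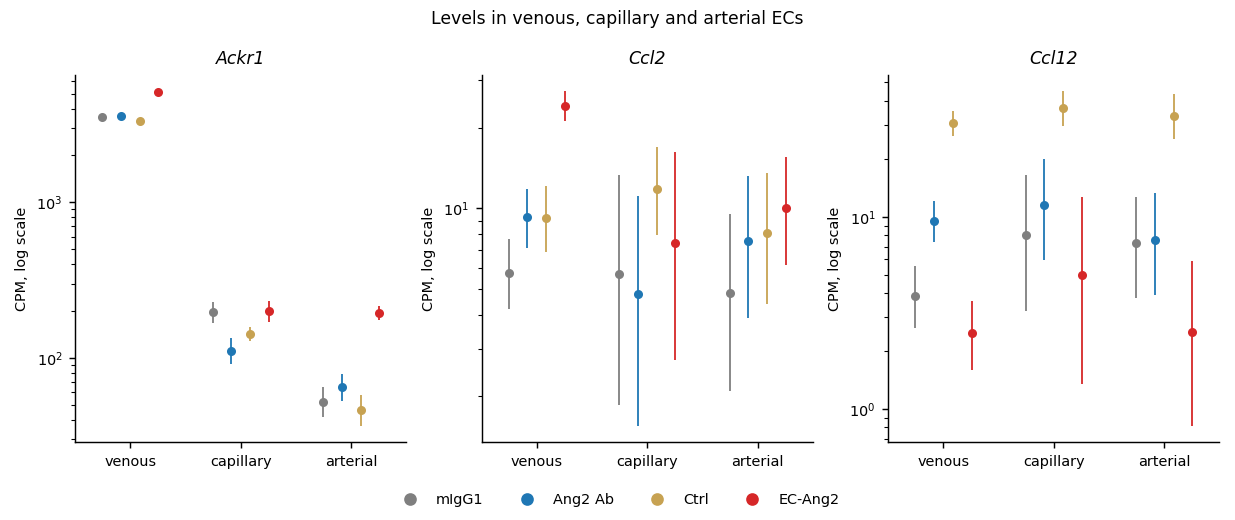
CPM (log scale) of *Ackr1*, *Ccl2*, and *Ccl12* in venous, capillary, and arterial ECs, with 1 point per library and its 95% counting interval. Venous *Ackr1* lies between 3329 and 5126 CPM, above all other zones, while *Ccl2* stays under 25 CPM and *Ccl12* is highest in Ctrl in every zone.

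UMIs of *Ackr1* were found in 71.1%, 56.5%, 46.7%, and 83.0% of venous ECs, or 61.7%, 48.7%, 40.7%, and 73.6% after thinning. In capillary ECs the thinned shares were 14.2%, 8.71%, 5.58%, and 16.2%, and in arterial ECs 7.87%, 5.33%, 6.71%, and 12.3%. The arterial shares of mIgG1 and Ang2 Ab and the capillary share of Ctrl were below those of T cells in the same library. Their levels were 8.93%, 13.7%, and 22.7% of the droplet level, above the range of the immune classes, so the shares and the levels gave different orders.

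Of the 3 members that could be tested between zones, *Ackr1* alone was called between venous and capillary ECs (25.6-fold, log2 4.68 ± 0.21, adjusted p = 8.89e-11), where 25% of 10095 genes were called. Between venous and arterial ECs, 2 of the 3 were called, against 35.7% of all genes. *Ackr1* was 52.3-fold higher in venous ECs (5.71 ± 0.22, adjusted p = 1.89e-12) and *Ccl2* 1.74-fold higher (0.80 ± 0.27, adjusted p = 0.0267). The *Ccl2* call was lost without *EC-Ang2* (0.37, adjusted p = 0.336) and in DESeq2 (adjusted p = 0.143). Venous *Ccl2* was at 5.76, 9.25, 9.23, and 24.1 CPM, and in *EC-Ang2* 65 of 244 UMIs lay in 1 barcode, without which the level was 17.7 CPM. Thinned shares of venous cells with *Ccl2* were 0.895% to 2.54%, no higher than those of T cells in the same random draw. The T cell shares rest on few cells, with 1, 7, 2, and 9 cells holding *Ccl2* in a second draw. The order of the 2 is therefore uncertain.

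Myeloid cells were also divided by overlapping marker genes, since macrophages in EAE lesions differ in state. *Ms4a7* marks macrophages, *Gpnmb* is a gene of lipid-handling phagocytes, *Arg1* and *Nos2* encode competing arginine-using enzymes, and *S100a8* and *S100a9* are granulocyte and monocyte genes. *Ccl7* was at 42.9, 216, 539, and 270 CPM in *Ms4a7*+ cells against 36.1, 126, 126, and 103 CPM in all myeloid cells and 31.8, 93.4, 82.0, and 63.6 CPM in *Nos2*+ cells. The order *Ms4a7*+, all myeloid, *Nos2*+ held in each library. The sparse *Ccl8* was at 11.1, 31.0, 132, and 22.3 CPM in *Ms4a7*+ cells against 6.16, 11.5, 24.3, and 7.21 CPM in all myeloid cells. The Ctrl group of *Ms4a7*+ cells was small, with 81 cells against 339 to 851 in the other libraries.

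*Ccr2* was low in *Gpnmb*+ cells, at 46.2, 54.9, 67.2, and 56.0 CPM, and in *Nos2*+ cells, at 61.7, 56.7, 95.9, and 83.4 CPM, against 151, 168, 163, and 203 CPM in all myeloid cells. All 8 of these values lay below the all-myeloid value of the same library. Cells with *Fscn1* or *Ccr7*, genes of mature dendritic cells, were lower still at 34.7, 42.6, 14.7, and 48.2 CPM. In Ctrl, 85.4% of these cells were in the microglial class, against 15.4% to 17.7% in the other libraries. The Ctrl value is therefore largely one of microglial cells. Of the *Gpnmb*+ cells, 64.0% to 84.1% were in the *Ly6c2*+ monocyte class. *Arg1*+ cells, at 130, 160, 211, and 190 CPM, had no such low level of *Ccr2*. *Ccl2* in *Nos2*+ cells was at 76.3, 238, 555, and 392 CPM, against 97.9, 361, 629, and 399 CPM in all myeloid cells, so that the difference was small in *EC-Ang2*. The groups share cells, so these differences were not tested.

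**Figure D3:**
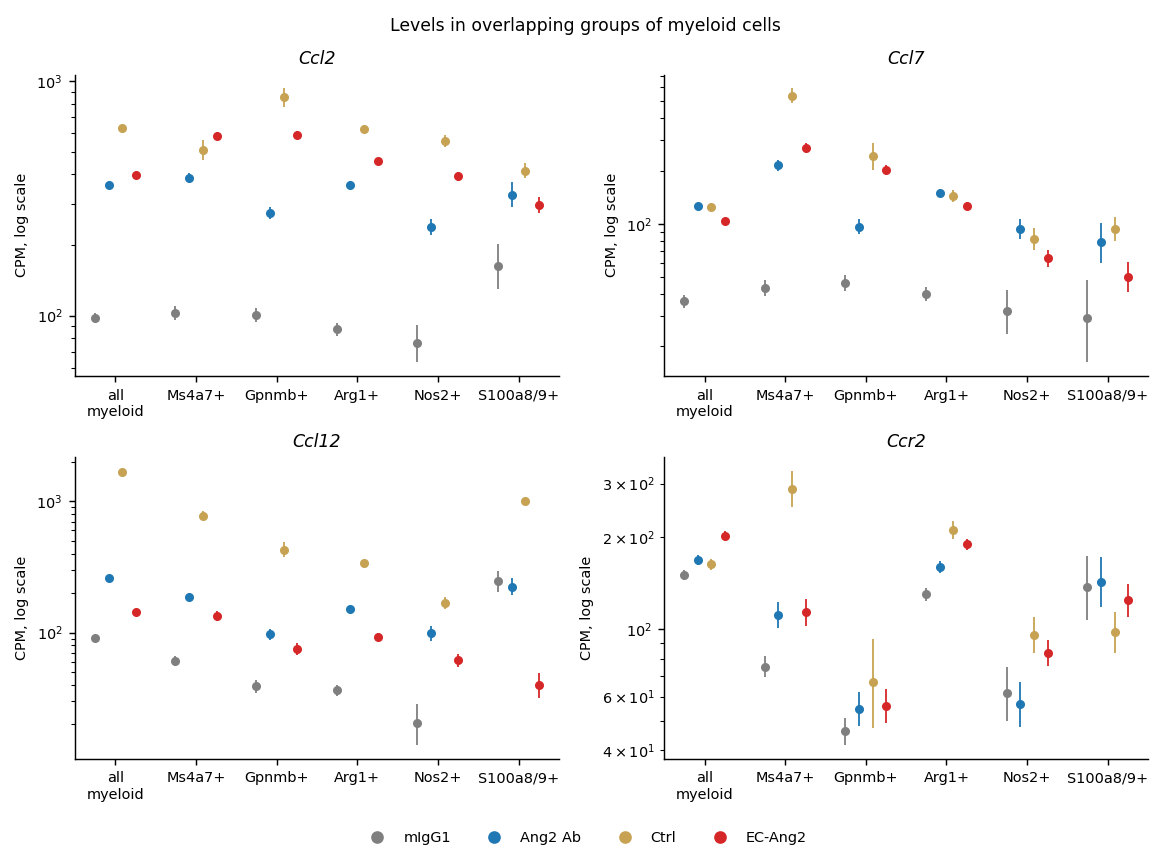
CPM (log scale) of *Ccl2*, *Ccl7*, *Ccl12*, and *Ccr2* in all myeloid cells and in 5 overlapping groups of them set by 1 or 2 marker genes, with 1 point per library and its 95% counting interval. *Ccl7* is highest in *Ms4a7*+ cells in Ang2 Ab, Ctrl, and *EC-Ang2*, and *Ccr2* is low in *Gpnmb*+ and *Nos2*+ cells.

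Profiles over the 24 combinations of class and library showed which genes followed each member most closely, as Pearson's r of log2(CPM + 1) over 10118 genes. The profiles share libraries and depth, so r is a description only. *Apobec1* (0.87) was among the 3 genes most like *Ccl2*. *Ccl7* followed *Fcgr4* (0.93), *Mpeg1*, and *Mfsd12* (both 0.91), and the sparse *Ccl8* followed *Amz1* (0.84), *Ccl7*, and *Mobp*. *Ccl12* followed *Ccl3* (0.95), the gene of another inflammatory chemokine, and *Fcrls* (0.94), a microglial gene, and *Fgd2* (0.94). *Ccr2* was nearest to *Runx3* (0.97), a lymphocyte transcription factor gene, *Arpc5* (0.97), and *Lilr4b* (0.96), and *Ackr1* to *Ramp2* (0.97), an EC receptor subunit gene, *Tmem252* (0.97), and *Gm5* (0.95). Among the members, *Ccl7* and *Ccl8* were the closest pair (0.84), followed by *Ccl2* and *Ccl7* (0.80), and *Ccl2* and *Ccr2* had an r of 0.12.

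Other genes of the chemokine system were read from a list of 33, of which 30 were tested between classes. Against monocytes, ECs were higher in 6 and lower in 21 (median log2 −3.69, against 0.14 over all genes, of which 41.2% were higher and 33.8% lower), led by the lower *Ccr1* (−6.99), a monocyte chemokine receptor gene, and the myeloid chemokine genes *Ccl9* (−6.46) and *Ccl6* (−6.44). Mural cells were higher than ECs in 2 and lower in 5 (median −1.26, against −0.82, with 5.71% of all genes higher and 19.1% lower). The largest were *Cx3cl1* (−10.4 ± 2.8 SE), the fractalkine gene, and *Ccl19* (−10.3 ± 2.4), a CCR7 ligand gene. *Ccl11* (6.20 ± 0.46), the eotaxin gene that lies between *Ccl7* and *Ccl12*, came next. The mural class held only 27039 to 62420 UMIs per library, so the size of the drops in *Cx3cl1* and *Ccl19* is uncertain. Fibroblast genes reached 4082 CPM in the mural cells of Ang2 Ab, and their part in the *Ccl11* value was not tested.

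Microglial cells were higher than monocytes in 6 of these genes and lower in 8 (median −0.36, against 0.01, with 20.6% of all genes higher and 21.5% lower), and *Cxcl13* (5.72), *Cx3cr1* (3.67), a microglial receptor gene, and *Ccl4* (3.62) differed most. *Ly6c2*-low myeloid cells were higher in 9 and lower in 1 (median 0.47, against −0.03, with 2.99% of all genes higher and 0.774% lower), with *Cxcl13* (4.25) and the dendritic cell genes *Ccr7* (3.70) and *Ccl22* (3.01) in front. T cells were higher in 3 and lower in 19 (median −2.62, against −0.06, with 25.1% of all genes higher and 28.0% lower), with *Cxcr6* (8.38), an effector T cell receptor gene, and the lower *Ccl24* (−6.72) and *Ccl6* (−6.22). In venous ECs the 3 genes with the largest differences, of 23 tested, were *Ccl19* (4.33 against capillary and 5.44 against arterial ECs), *Cxcl9* (2.99 and 3.64), an interferon-induced ligand gene, and *Cxcl1* (2.97 and 3.37), a neutrophil chemokine gene. In all, 6 were higher and 5 lower against capillary ECs (median −0.11, against −0.01, with 13.4% of all genes higher and 11.6% lower), and 7 and 3 against arterial ECs (median 0.07, against −0.003, with 18.5% of all genes higher and 17.2% lower).

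The libraries were then compared within each pair, which asks how the axis stood under Ang2 blockade and under EC Ang2 overexpression. With 1 library per condition these are differences between libraries, given as log2 ratios of CPM with the 95% counting interval. A member was counted as past the fold when it differed 1.5-fold or more and had at least 50 UMIs in the pair. Of the 24 values of 6 members in 4 classes, 12 were past the fold between Ang2 Ab and mIgG1, all of them higher in Ang2 Ab. Among the 12 were *Ccl2*, *Ccl7*, and *Ccl12* in ECs. Those EC values were at a few percent of the droplet level and are not read as expression there.

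In monocytes, 3 of 6 members were past the fold, against 10.5% of all genes. *Ccl2* stood at 356 CPM under blockade against 81.2 CPM with mIgG1 (log2 ratio 2.13, 2.03 to 2.24). *Ccl7* was higher by 1.99 (1.83 to 2.15) and *Ccl12* by 1.72 (1.55 to 1.90), whereas *Ccr2* differed by 0.34 (0.25 to 0.43). Barcodes left out as positive for more than 1 lineage held 58.4% of the *Ccl2* UMIs of mIgG1 and 34.5% of those of Ang2 Ab. In those barcodes *Ccl2* was also higher in Ang2 Ab, but by less than in monocytes. The part of this uneven loss in the monocyte values was not tested. *Ly6c2*-low myeloid cells had 4 of 6 past the fold, also against 10.5%. These were *Ccl7* (2.12, 1.77 to 2.48), *Ccl8* (1.76, 1.06 to 2.51), *Ccl2* (1.54, 1.35 to 1.72), and *Ccl12* (1.27, 1.06 to 1.49), and *Ccr2* was at −0.01 (−0.17 to 0.15). At 5000 UMIs per barcode the sign of *Ccl8* turned (−0.21). In microglial cells 2 of 6 were past the fold, against 16.5%: *Ccl2* at 1.09 (0.93 to 1.25) and *Ccl12* at 0.67 (0.57 to 0.79). Monocyte and macrophage genes stood at 11972 CPM in the microglial class of mIgG1 and 5719 CPM in that of Ang2 Ab. Microglial check genes stood there at 5289 and 6254 CPM. The part of this mixing in the 2 microglial values was not tested.

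ECs had 3 of 5 members past the fold, against 6.91% of all genes, and these were *Ccl2* (0.73, 0.34 to 1.12), *Ccl7* (1.80, 1.01 to 2.65), and *Ccl12* (1.05, 0.65 to 1.47). The droplets of 1 to 100 UMIs were higher in Ang2 Ab as well, at 149 against 93.4 CPM for *Ccl2*, 49.0 against 20.2 CPM for *Ccl7*, and 193 against 135 CPM for *Ccl12*, and their part in the EC values was not tested. With Leiden clusters the EC values turned to −1.29, −1.07, and −0.69 for these 3 genes. EC *Ackr1* differed by −0.17 (−0.19 to −0.15) and venous *Ackr1* by 0.003 (−0.02 to 0.03). T cell *Ccr2* was higher by 0.68 (0.38 to 0.98).

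**Figure D4:**
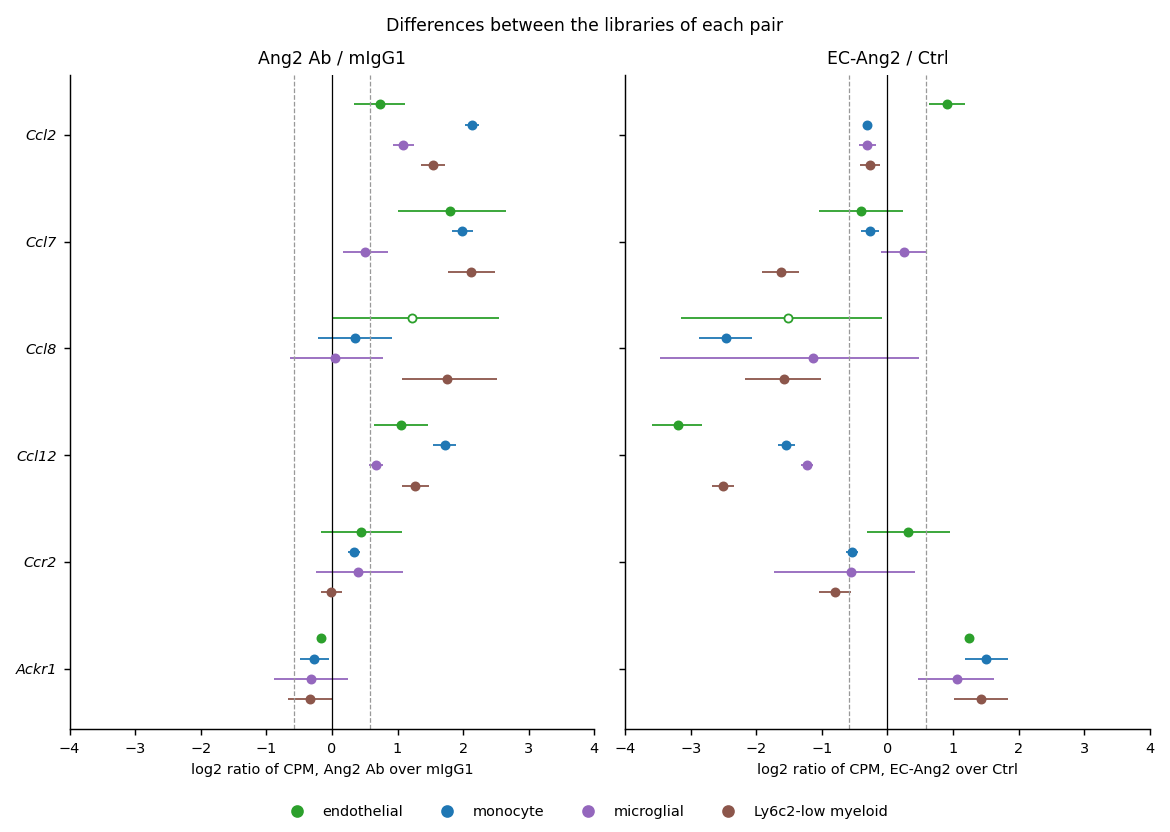
Log2 ratio of CPM between the 2 libraries of each pair for the 6 genes in 4 cell classes, with 95% counting intervals; dashed lines mark 1.5-fold and open points have fewer than 50 UMIs in the pair. The myeloid ligand values of Ang2 Ab over mIgG1 lie at or right of 0, and those of *Ccl12* for *EC-Ang2* over Ctrl lie left of −1 in all 4 classes.

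Between *EC-Ang2* and Ctrl, 14 of the 24 values were past the fold, 5 higher and 9 lower. They include *Ackr1* in the 3 myeloid classes and *Ccl12* in ECs. Those values were at a few percent of the droplet level and are not read as expression there. *Ccl12* and *Ackr1* were past the fold in all 4 classes, *Ccl12* lower and *Ackr1* higher in *EC-Ang2*. The log2 ratio of *Ccl12* was −1.23 (−1.32 to −1.14) in microglial cells, −1.54 (−1.68 to −1.41) in monocytes, −2.50 (−2.67 to −2.34) in *Ly6c2*-low myeloid cells, and −3.20 (−3.59 to −2.83) in ECs. The droplets held 947 CPM in Ctrl and 210 CPM in *EC-Ang2*. The microglial class held 820 cells in Ctrl and 67 in *EC-Ang2*. Microglial check genes stood in it at 10676 and 5080 CPM, and monocyte and macrophage genes at 3040 and 5874 CPM. In *Ly6c2*-low myeloid cells the microglial genes stood at 1376 and 451 CPM. The part of these shifts in the *Ccl12* values was not tested. *Ccl2* in the 3 myeloid classes was within the fold, at −0.31 in both monocytes and microglial cells and −0.27 in *Ly6c2*-low myeloid cells.

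By class, monocytes had 3 of 6 members past the fold, against 16.1% of all genes: *Ccl8* (−2.46), *Ccl12*, and *Ackr1* (1.51). Without the barcode with the most UMIs in each library, *Ccl8* was at −1.70, and with Leiden clusters *Ccl8* (2.45) and *Ackr1* (−0.38) changed sign. The granulocyte genes stood at 12666 CPM in the monocytes of Ctrl and at 2913 CPM in those of *EC-Ang2* (mIgG1 had 585 CPM and Ang2 Ab 1891 CPM), and their part in the monocyte values was not tested. Microglial cells had 3 of 6, against 32.1%: *Ccl12*, *Ccl8* (−1.14, −3.46 to 0.48), and *Ackr1* (1.06), which was at −0.68 with Leiden clusters. The *Ly6c2*-low class had 5 of 6, against 13.1%: *Ccl7* (−1.63, −1.91 to −1.35), *Ccl8* (−1.57), *Ccl12*, *Ccr2* (−0.80, −1.04 to −0.56), and *Ackr1* (1.42), and *Ccl8* was at 0.36 when 5000 UMIs per barcode were required. The *Ackr1* values of the myeloid classes were 3.00% to 4.34% of the droplet level in these 2 libraries, and the droplets stood at 623 CPM in Ctrl and 1552 CPM in *EC-Ang2*. *Ccl7* in microglial cells turned from 0.25 to −0.84 without the barcode with the most UMIs.

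ECs had 3 of 5 past the fold, against 17.4%: *Ackr1*, *Ccl2*, and *Ccl12*. *Ackr1* was higher in ECs of *EC-Ang2* by 1.24 (1.22 to 1.26), at 3117 against 1318 CPM. Within venous ECs the difference was 0.62 (0.60 to 0.65), in capillary ECs 0.49 (0.22 to 0.77), and in arterial ECs 2.07 (1.72 to 2.43). Without the barcode with the most UMIs in each library, the capillary value was 0.33 and the arterial value 1.958. Against the droplets, arterial levels were at 7.41% in Ctrl and 12.5% in *EC-Ang2*, and capillary levels at 22.75% and 12.9%. The droplets stood at 623 and 1552 CPM, and their part in the capillary and arterial values was not tested. Venous cells were 902 of 3526 ECs in Ctrl and 868 of 2377 in *EC-Ang2*. ECs that passed for more than 1 zone numbered 971 and 343, and those that passed for none 701 and 679. Median depth of venous ECs was 4898 UMIs in Ctrl and 9545 UMIs in *EC-Ang2*, and the zones were set without thinning. These counts therefore do not give the venous share of ECs. EC *Ccl2* was higher by 0.91 (0.64 to 1.19), and venous *Ccl2* by 1.39 (0.95 to 1.85). Without the barcode with the most UMIs in each library, these values were 0.64 and 0.99. EC *Ccl2* stood at 8.95 CPM in Ctrl and 16.8 CPM in *EC-Ang2*, and the droplets at 298 and 175 CPM. Venous levels were 3.10% and 13.8% of the droplet level, so the Ctrl value is not read as expression. The immune genes as a set stood at 31.45% in ECs of *EC-Ang2*, and the part of free RNA was not tested.

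The 2 control libraries also differed from each other. Ctrl over mIgG1 was 2.66 (2.55 to 2.77) for *Ccl2*, 2.66 (2.49 to 2.83) for *Ccl12*, and 1.03 (0.94 to 1.13) for *Ccr2* in monocytes, and 2.19 (2.09 to 2.28) for *Ccl12* in microglial cells. EC *Ackr1* was at −0.68 (−0.71 to −0.66) and venous *Ackr1* at −0.10 (−0.12 to −0.07). In the microglial class, microglial check genes stood at 10676 CPM in Ctrl and 5289 CPM in mIgG1. Their part in the microglial *Ccl12* value was not tested. The 2 control libraries differ in strain, age, day, toxin dose, and the control treatment at once, and these cannot be told apart.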

How the data were processed

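Per the labels, 10x Genomics 3′ libraries (v2) were made from sorted SC cells, 1 library per condition. The deposited matrices hold raw UMI counts per gene and barcode, which the authors made with Cell Ranger 2.1.1 on mm10 (submitters' processing notes), before any doublet removal or normalization. All barcodes were present, so cells and empty droplets were set here. A barcode belonged to a class with at least 2 UMIs of its marker (1 for *Cd3e*, 10 over the 3 myeloid genes). Barcodes positive for more than 1 lineage (9.57% to 20.0%) were left out as possible doublets. They numbered 518 to 1399 per library, while 235 to 449 barcodes were taken out in the Scrublet alternative. Their median depth was 8829 to 11209 UMIs, against 5658 to 7883 UMIs in monocytes. How many of them were doublets and not deep single cells was not tested. Myeloid barcodes positive for both *Ly6c2* and the microglial markers, 93 to 171 per library, were also left out. Shares of cells were compared after thinning to 2000 UMIs.

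UMIs were summed per class and library and tested in edgeR 4.0.16 (R 4.3.3; TMM, filterByExpr, quasi-likelihood test, class plus library, Benjamini-Hochberg adjustment). Python 3.11.15 and scanpy 1.11.5 were used for the rest. Pairs of libraries were compared by exact conditional binomial intervals, and shares have exact Clopper-Pearson intervals. The genes named besides the members were the 3 of the chemokine list with the largest called difference in a contrast and the 3 with the highest r, of which 2 are not reported here. The members and lists were chosen with earlier results of these data known. Alternatives covered UMI minimum, gates, Leiden clusters made without chemokine genes, Scrublet, free RNA subtraction, RLE factors, DESeq2 1.42.0, no filter, leaving out a library, single-cell means, and a pair minimum of 20 UMIs. The test was checked on simulated sums of ECs, monocytes, and microglial cells without a library effect, for the EC against monocyte contrast. The other contrasts and changes in low-count genes were outside that check. Gene positions are from an annotation of GRCm38, the assembly of mm10.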

Additional observations from a re-analysis of the deposited data

Results flagged for a closer look

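Barcodes positive for markers of more than 1 lineage entered none of the main comparisons. The Leiden clusters did not leave them out, and the looser *Cldn5* limit took back some of them. They held 31.64% of the *Ccl2* UMIs in all kept barcodes, 28.09% of those of *Ccl7*, 42.59% for *Ccl8*, 32.72% for *Ccl12*, 23.35% for *Ccr2*, and 11.6% for *Ackr1*. With the other barcodes left out, the classes held 31610 of 54435 *Ccl12* UMIs and 792 of 1794 *Ccl8* UMIs. The shares held by barcodes of more than 1 lineage are signals in data outside the main comparisons. The mIgG1 library had the highest shares, 58.4% for *Ccl2* and 52.6% for *Ccl12*, and 20% of its barcodes were of this kind. In these barcodes *Ccl2* was at 170, 340, 441, and 309 CPM and *Ccl12* at 142, 341, 1317, and 208 CPM (mIgG1, Ang2 Ab, Ctrl, and *EC-Ang2*).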

How the results depend on the processing

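The count of members called between ECs and monocytes was 6 in every alternative, but the free RNA subtraction could not test the members lower in ECs. Mural cells against ECs went from 2 to 4 with free RNA subtracted, with no filter, in DESeq2, and without mIgG1 or Ctrl, and to 1 without the barcode with the most UMIs (range without single libraries 2 to 4). *Ly6c2*-low myeloid cells against monocytes went from 2 to 1 with stricter gates, Leiden clusters, free RNA subtracted, the looser *Cldn5* limit, and DESeq2, to 4 with no filter, and to 0 without Ang2 Ab or *EC-Ang2*. T cells against monocytes went from 4 to 2 with Leiden clusters. Venous against capillary ECs went from 1 to 2 without Ctrl. Venous against arterial ECs went from 2 to 1 at 5000 UMIs, with stricter gates, free RNA subtracted, the venous gate without *Selp* and *Sele*, DESeq2, and without *EC-Ang2*. The 14 values past the fold between *EC-Ang2* and Ctrl became 9 with free RNA subtracted, and the 12 of the antibody pair stayed between 11 and 16.

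Signs turned as follows. Mural against EC: *Ccl8* −4.46 without Ang2 Ab, *Ccl12* 0.24 with free RNA subtracted, and *Ccr2* −6.14 at 5000 UMIs, −0.87 with Leiden clusters, −6.61 without the barcode with the most UMIs, and −6.66 without *EC-Ang2*. Microglial against monocyte: *Ccl8* −0.22 with stricter gates, −0.021 with Leiden clusters, −0.47 without that barcode, and −0.56 and −0.44 without mIgG1 and Ang2 Ab, and *Ackr1* 0.074 with Leiden clusters and 0.47 with free RNA subtracted. *Ly6c2*-low against monocyte: *Ccl8* −0.089 and −0.000518 and *Ackr1* −0.11 and −0.064 at 5000 UMIs and with stricter gates, and *Ccl12* −1.002 with Leiden clusters. T cell *Ackr1* was 0.39 with Leiden clusters and 0.94 with free RNA subtracted. Venous against arterial *Ccl12* was 0.016 at 1000 UMIs, 0.0011 at 5000, 0.13 with stricter gates, 0.032 without shared barcodes, 0.025 without the barcode with the most UMIs, 0.012 with no filter, and 0.11 without mIgG1. In the pairs, EC *Ccl2*, *Ccl7*, and *Ccl12* of Ang2 Ab were −1.29, −1.07, and −0.69 with Leiden clusters, as were monocyte *Ccl8* (2.45) and *Ackr1* (−0.38) and microglial *Ackr1* (−0.68) of *EC-Ang2*. *Ccl8* in *Ly6c2*-low cells was −0.21 (Ang2 Ab) and 0.36 (*EC-Ang2*) at 5000 UMIs, and microglial *Ccl8* of *EC-Ang2* was 0.13 as a mean of single-cell CPM. The cause was not tested. Without single libraries, mural *Ccl8* ran from −4.46 to 5.37, mural *Ccr2* from −6.66 to 0.98, microglial *Ccl8* from −0.56 to 1.33, and venous against arterial *Ccl12* from −0.13 to 0.11.

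Another scaling moved the share of higher calls by over 10 percentage points in 2 contrasts. Of genes called between mural cells and ECs, 23.0% were higher in mural cells, against 42.9% with RLE factors and 59.4% in DESeq2 (median log2 −0.82, −0.37, and −0.03), and for microglial cells 49.0%, 59.7%, and 59.5% (0.007, 0.12, and 0.14). Smaller shifts turned the sign of the all-gene median for T cells (−0.06, 0.008, and 0.05, with 47.3%, 51.2%, and 52.1% higher) and *Ly6c2*-low cells (−0.03, 0.03, and 0.03, with 79.5%, 87.4%, and 87.7% higher). Low counts limit *Ccl8* and the EC ligands, and the mural class held 10 to 18 cells per library.

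The rules that name Leiden clusters, the looser *Cldn5* limit, the removal of shared barcodes or of the barcode with the most UMIs, and the narrower venous gate were chosen after seeing the data. No paired analysis was possible because each condition has 1 library.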
